A study of Homo sapiens with 4 samples.

Results

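Somatostatin, encoded by SST, and its receptors SSTR1, SSTR2, SSTR3, SSTR4 and SSTR5 were followed in 2 human neuroendocrine tumour cell lines with and without depletion of DAXX, the chaperone of histone variant H3.3. These 6 genes were found by gene symbol among 19775 genes of the array, and all 10 probe sets annotated to them were used, out of 54613 in the table. SST, SSTR4 and SSTR5 had 1 probe set each, SSTR1 and SSTR3 had 2 each and SSTR2 had 3.

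The groups were NCI-H727, a bronchial neuroendocrine tumour line, with DAXX siRNA (DAXX-KD); NCI-H727 with a negative control siRNA; QGP1, a pancreatic neuroendocrine tumour line, with DAXX siRNA; and QGP1 with the control siRNA. Each group was 1 array, so no group had a replicate. Every sample was electroporated with siRNA to a final 50 nM, the controls included, and the labels name 2 DAXX siRNAs without saying whether they were pooled. The labels give neither a time after electroporation nor repeat cultures.

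Somatostatin is a small peptide hormone of islet and gut D cells and of neurons that restrains the release of other hormones. It is cut from a precursor and acts on 5 receptors, SSTR1 to SSTR5, which couple to inhibitory G proteins, lower cyclic AMP, open potassium channels and close calcium channels. Many neuroendocrine tumours carry these receptors, SSTR2 above all, and synthetic analogues such as octreotide, which bind mainly SSTR2 and SSTR5, are used to image and treat them.

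Line names below are those of the sample titles, because the other labels disagree with them. For both NCI-H727 samples the source field names QGP1 too, and the description of all samples speaks of ALDH high QGP1 cells. The markers did not settle the lines, since some ran against the titles and others did not. NKX2-1, a lung and thyroid transcription factor, read 3.23 and 3.35 on the NCI-H727 DAXX-KD and control arrays, against 8.38 and 8.77 on those of QGP1, on the log2 scale. GRP, the gastrin-releasing peptide of lung neuroendocrine cells, read 4.12 and 5.37 in NCI-H727, against 11.76 and 12.80 in QGP1. NKX2-1 and GRP were thus low on the arrays titled as the bronchial line and high on those titled as the pancreatic line. CALCA, the calcitonin gene and the other bronchial marker measured, was high on all arrays, with 13.46 and 13.54 in NCI-H727, against 13.74 and 13.72 in QGP1. NKX2-2, an islet factor, read 9.25 and 9.17 in NCI-H727, against 5.93 and 4.80 in QGP1. The islet factors PAX6 and ISL1 ran the other way: PAX6 read 5.67 and 5.12 in NCI-H727, against 6.77 and 6.64 in QGP1, and ISL1 read 8.94 and 8.82 in NCI-H727, against 9.46 and 9.61 in QGP1. PDX1, the defining pancreatic factor, lay between 5.23 and 5.54 on all arrays. Among neuroendocrine markers, the chromogranin genes CHGA and CHGB lay between 11.14 and 12.76, INSM1 between 10.98 and 11.39, and SYP between 5.89 and 6.32. CHGA was higher in NCI-H727, with 12.27 and 12.17, against 11.20 and 11.14 in QGP1. NCAM1 was lower in NCI-H727, with 5.62 and 5.77, against 8.38 and 8.28 in QGP1. So was ENO2, with 7.66 and 7.80 in NCI-H727, against 8.94 and 9.01 in QGP1. Among pancreatic exocrine and ductal markers, KRT19 read 12.91 and 12.92 in NCI-H727, against 9.40 and 9.48 in QGP1. CPA1, of the same list, lay between 2.74 and 2.92 on all arrays. Whether the titles are exchanged was not tested, so the direction of every difference between lines rests on the titles. Exchanged line names would leave the size of a difference between DAXX-KD and control within a line unchanged. They would change the line it is credited to. Which arrays form a pair, and which of them is DAXX-KD, also rests on the titles.

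The knockdown itself was visible in each line. The DAXX probe set 201763_s_at read 6.14 on the DAXX-KD array and 7.35 on the control array of NCI-H727, which is 43.3% of the control signal. In QGP1 it read 6.56 on the DAXX-KD array and 8.52 on the control array, or 25.7%. At the other DAXX probe set, 216038_x_at, the DAXX-KD signal was 56.2% of control in NCI-H727 and 22.7% in QGP1. Array medians lay between 5.31 and 5.36. Leukocyte markers (PTPRC, CD3E and CD14) lay between 3.36 and 5.36 in NCI-H727 and between 3.003 and 4.92 in QGP1.

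Promoter sequence is shown for the genes with a probe set that differed between the lines in the results that follow. For SSTR1, 235591_at differed and 208482_at did not. SST is the gene in which the cAMP response element, the letters TGACGTCA bound by CREB1, is best known. Each line gives the 250 bases before the transcription start, 5′ to 3′ on the gene's strand, from the RefSeq promoter table (GRCh38.p14), in which all 6 genes were found. Capitals mark the element or its half-site, TGACG or CGTCA on the other strand; both half-sites overlap within the whole element.
SST, chr3:187670395-187670644, minus strand: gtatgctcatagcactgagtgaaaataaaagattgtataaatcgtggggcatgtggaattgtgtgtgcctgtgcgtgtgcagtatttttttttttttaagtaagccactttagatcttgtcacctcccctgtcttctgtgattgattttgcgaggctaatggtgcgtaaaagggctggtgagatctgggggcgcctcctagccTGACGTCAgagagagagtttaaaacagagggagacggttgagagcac
SSTR1, chr14:38207654-38207903, plus strand: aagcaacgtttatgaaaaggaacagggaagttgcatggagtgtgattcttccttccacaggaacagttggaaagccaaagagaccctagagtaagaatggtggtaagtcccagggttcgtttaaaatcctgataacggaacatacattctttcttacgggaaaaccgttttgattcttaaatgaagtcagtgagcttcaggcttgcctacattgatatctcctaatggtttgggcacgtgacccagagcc
SSTR2, chr17:73164760-73165009, plus strand: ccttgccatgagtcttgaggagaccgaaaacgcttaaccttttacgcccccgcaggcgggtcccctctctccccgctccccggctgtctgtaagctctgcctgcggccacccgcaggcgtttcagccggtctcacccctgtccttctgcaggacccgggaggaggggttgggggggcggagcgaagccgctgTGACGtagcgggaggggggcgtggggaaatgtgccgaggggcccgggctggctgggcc

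The SST window held the whole element once, 47 bases before the start. Of 35116 promoter windows of this length, 1.65% held it on either strand. The SSTR2 window held 1 half-site, 58 bases before the start, and 21.2% of all windows held a half-site. Neither form was found in the windows of SSTR1, SSTR3, SSTR4 and SSTR5. The homeodomain core TAAT (or ATTA), the kind of letters that PDX1 and ISL1 bind, occurred once each in the SST, SSTR1 and SSTR5 windows and in 47.4% of all windows. The SSTR2 window was 69.2% G and C, against 45.6% in SST and 43.6% in SSTR1.

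The hormone gene was strongly expressed on every array. SST (213921_at) read 11.80 on the NCI-H727 DAXX-KD array, 11.87 on the NCI-H727 control array, 13.07 on the QGP1 DAXX-KD array and 13.83 on the QGP1 control array. Both NCI-H727 values lay below both QGP1 values, and the SST signal exceeded that of 99.9% of probe sets on the QGP1 control array and 98.2% on the NCI-H727 DAXX-KD array. Probe sets bind with different strength, so levels are compared between arrays and not between genes.

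**Figure D1:**
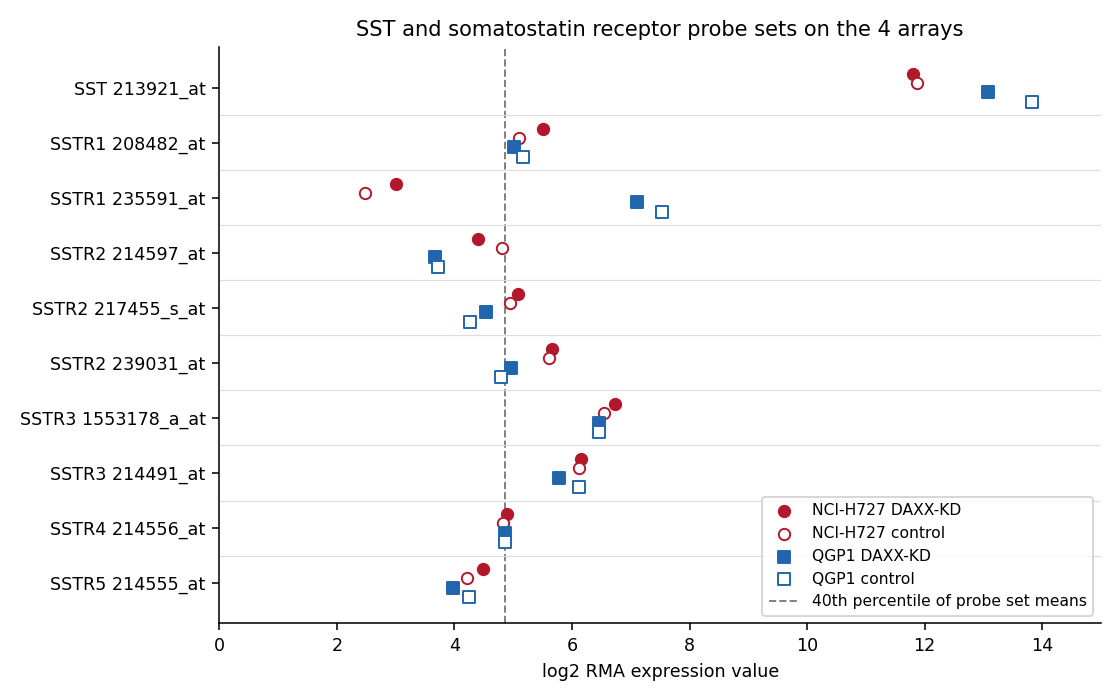
Log2 RMA values of the 10 probe sets on the 4 arrays, 1 symbol per array, with the 40th percentile of all probe set means (4.85) as a dashed line. SST stands far to the right on every array, SSTR1 235591_at splits the lines by more than 4 log2 units, and the other receptor probe sets lie between 3.67 and 6.74.

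Receptor probe sets ran from dim to above the middle of the array. SSTR3 1553178_a_at exceeded 65.9% to 70.1% of probe sets on every array, and SSTR5 exceeded 25.6% to 33.4%. A probe set was taken as dim where its mean over the 4 arrays lay below 4.85, the 40th percentile over the whole table. Of 9 receptor probe sets, 6 lay at or above that level, SSTR4 only just. Near this level RMA values are compressed, and a fold change there may understate the change in RNA.

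SSTR1, a receptor of hypothalamus, gut and islets, gave different readings at its probe sets. SSTR1 235591_at, designed on an expressed sequence tag, read 3.0 and 2.49 on the NCI-H727 DAXX-KD and control arrays, against 7.11 and 7.53 on the QGP1 DAXX-KD and control arrays. SSTR1 208482_at, designed on the RefSeq transcript, read 5.51 and 5.10 in NCI-H727, against 5.01 and 5.17 in QGP1. The first set the lines far apart, while at the second the values of the lines overlapped. Which of them follows the SSTR1 transcript was not tested.

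SSTR2, the receptor that most clinical analogues target, read higher in NCI-H727 at each of its probe sets. SSTR2 239031_at read 5.66 and 5.60 on the NCI-H727 DAXX-KD and control arrays, against 4.97 and 4.79 on those of QGP1. SSTR2 217455_s_at read 5.09 and 4.95 in NCI-H727, against 4.53 and 4.27 in QGP1. SSTR2 214597_at read 4.41 and 4.81 in NCI-H727, against 3.67 and 3.73 in QGP1. In every case both NCI-H727 values lay above both QGP1 values, although 214597_at and 217455_s_at were dim by the rule above.

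SSTR3, a receptor found on neuronal cilia among other places, was nearly level. SSTR3 1553178_a_at read 6.74 and 6.54 on the NCI-H727 DAXX-KD and control arrays, against 6.47 and 6.46 on those of QGP1. SSTR3 214491_at read 6.15 and 6.11 in NCI-H727, against 5.78 and 6.11 in QGP1. SSTR4, mainly a brain and lung receptor, read 4.90 and 4.82 in NCI-H727, against 4.85 and 4.85 in QGP1. The values of the lines overlapped for SSTR4 and met at 6.11 for SSTR3 214491_at, while both NCI-H727 values of SSTR3 1553178_a_at lay above both QGP1 values.

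SSTR5, the other main target of clinical analogues, was dim on all arrays. It read 4.49 and 4.22 on the NCI-H727 DAXX-KD and control arrays, against 3.98 and 4.25 on those of QGP1. SSTR5-AS1, an antisense RNA gene chosen here after its values were seen, read 10.02 and 10.21 in NCI-H727, against 9.98 and 9.36 in QGP1. In the RefSeq table the 250-base windows before the starts of SSTR5 and SSTR5-AS1 lie on opposite strands of chromosome 16 and share 94 bases. In limma SSTR5-AS1 differed between the lines by 0.44 (SE 0.23, adjusted p = 0.239). Its DAXX-KD minus control difference was -0.18 in NCI-H727 and 0.62 in QGP1, from single arrays and not tested.

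The SSTR4 values of the QGP1 arrays, and the SSTR3 214491_at values of the NCI-H727 control and QGP1 control arrays, were identical to the last deposited digit. Such ties occurred at 0.879% and 0.742% of all probe sets for these pairs of arrays.

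The test between lines asked whether a member differed by more than the lines' knockdown responses disagreed. A limma fit of cell line and treatment over all 54613 probe sets compared the 2 arrays of NCI-H727 with the 2 arrays of QGP1. With 1 array per line and treatment it had 1 residual degree of freedom and a prior of 3.54, so p-values rest on how alike the lines responded to DAXX siRNA, not on a spread between cultures. At an adjusted p of 0.05 it called 5 of 10 member probe sets, 3 higher and 2 lower in NCI-H727. Over all probe sets it called 26.5%, with 12.1% higher and 14.4% lower.

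In NCI-H727 relative to QGP1, SST fell by 1.62 on the log2 scale, 3.07-fold lower (SE 0.20, adjusted p = 0.00733 in limma, lower in 2 of 2 pairs of arrays). The difference was -1.27 between the DAXX-KD arrays and -1.96 between the control arrays, so the lines stood closer after DAXX siRNA. SSTR2 rose in NCI-H727 at 3 of 3 probe sets. The limma differences were 0.91 for 214597_at (SE 0.15, adjusted p = 0.0151), 0.75 for 239031_at (SE 0.13, adjusted p = 0.0169) and 0.61 for 217455_s_at (SE 0.13, adjusted p = 0.0301). These correspond to 1.88-fold, 1.69-fold and 1.53-fold, on a scale that dim signal compresses. The SSTR2 probe sets measure 1 gene on the same arrays and are not independent.

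SSTR1 235591_at was 23.9-fold lower in NCI-H727 (-4.58, SE 0.25, adjusted p = 0.000917 in limma), against a NCI-H727 signal that lay under the dim level. SSTR1 208482_at differed by 0.22 (SE 0.18, adjusted p = 0.465), so the call for this gene rests on 1 of its 2 probe sets. Across genes with several probe sets past the dim level, the SD between probe sets of 1 gene was 0.665 for the difference between lines. SSTR3 (0.18 at both probe sets, SE 0.13 and 0.15), SSTR4 (0.01, SE 0.13) and SSTR5 (0.24, SE 0.18) did not pass, with adjusted p from 0.404 to 0.980. Past 2-fold in the same direction in both treatments were 2 member probe sets, SST and SSTR1 235591_at, beside 11.7% of all probe sets.

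**Figure D2:**
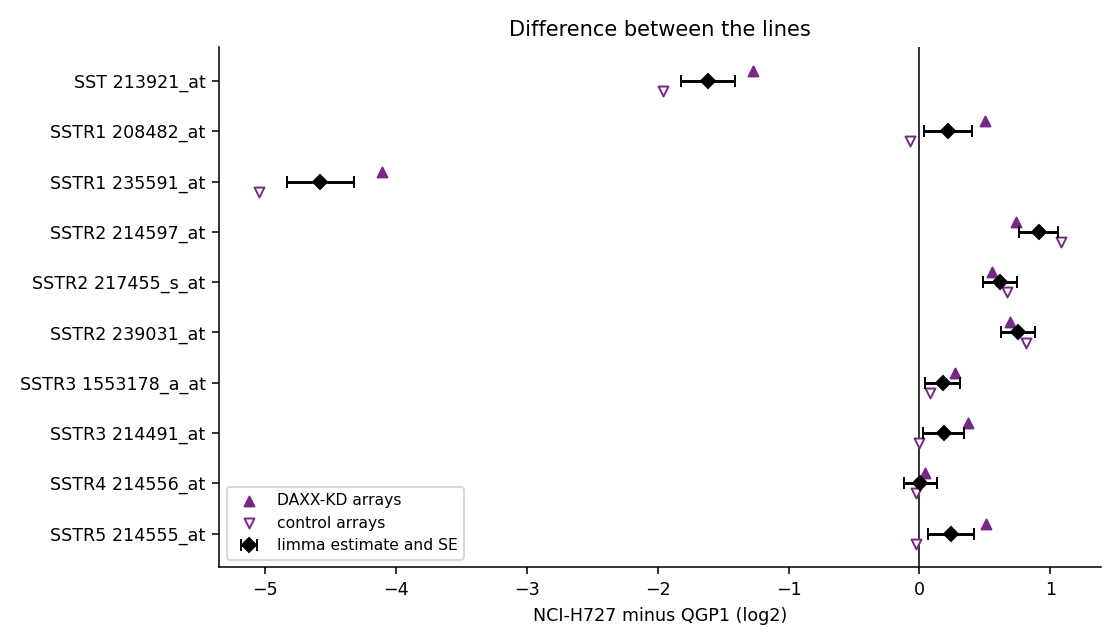
NCI-H727 minus QGP1 on the log2 scale for each probe set: between the DAXX-KD arrays, between the control arrays, and the limma estimate with its SE. SST and SSTR1 235591_at lie left of 0, the SSTR2 probe sets right of it at 0.61 to 0.91, and SSTR1 208482_at near 0.

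The largest member difference between DAXX-KD and control was a lower SST level in QGP1. No member probe set differed by 2-fold or more between DAXX-KD and control, 0 of 10 in either line, beside 1.16% of all probe sets in NCI-H727 and 0.306% in QGP1. The central 95% of all probe sets lay between -0.73 and 0.51 in NCI-H727 and between -0.50 and 0.50 in QGP1. Outside these ranges lay SST in QGP1 (-0.76) and, by a small margin, SSTR1 235591_at in NCI-H727 (0.51).

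The SST level in QGP1 DAXX-KD cells was 59.2% of the control, a log2 difference of -0.76, from 1 array each. In NCI-H727 it was 95.3% of the control, a difference of -0.07. Bright probe sets varied less than others in QGP1: the 276 with a QGP1 mean within 0.5 of that of SST had a central 95% between -0.23 and 0.16. In NCI-H727 the 862 such probe sets spanned -0.46 to 0.39. The SST value thus lay outside the range of probe sets of like brightness in QGP1 and inside it in NCI-H727. NKX2-2 was 2.19-fold higher in QGP1 DAXX-KD cells. PECAM1, an endothelial marker with 5 probe sets, was 2.08-fold higher there at the probe set with the highest mean. The other fibroblast and endothelial markers, VWF, COL1A1 and COL1A2, differed in QGP1 by only -0.01, -0.04 and 0.03. GRP was 2.06-fold lower in QGP1 DAXX-KD cells and 2.36-fold lower in NCI-H727 DAXX-KD cells. The part of NKX2-2, PECAM1 and GRP in the SST result was not tested. These ranges of like brightness were chosen after the values were seen and hold no error between cultures. The difference between the responses of the lines, 0.69, cannot be tested with 1 array per line and treatment.

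SSTR1 had differences of opposite sign in the lines at both probe sets. DAXX-KD minus control was 0.51 in NCI-H727 and -0.42 in QGP1 at 235591_at, where the NCI-H727 signal was dim. At 208482_at it was 0.41 in NCI-H727 and -0.16 in QGP1. The NCI-H727 value of 235591_at lay above the central 95% of probe sets of like level (-0.41 to 0.40, 6862 probe sets), and the other 3 lay inside theirs. For SSTR5 the values were 0.27 in NCI-H727 and -0.27 in QGP1, both inside.

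The SSTR2 probe sets differed in sign in NCI-H727. DAXX-KD minus control was -0.40 at 214597_at, 0.14 at 217455_s_at and 0.06 at 239031_at in NCI-H727. In QGP1 it was -0.06, 0.26 and 0.18 in the same order. SSTR3 1553178_a_at differed by 0.20 in NCI-H727 and 0.01 in QGP1, and SSTR3 214491_at by 0.04 in NCI-H727 and -0.33 in QGP1. SSTR4 differed by 0.07 in NCI-H727, and its QGP1 values were equal.

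**Figure D3:**
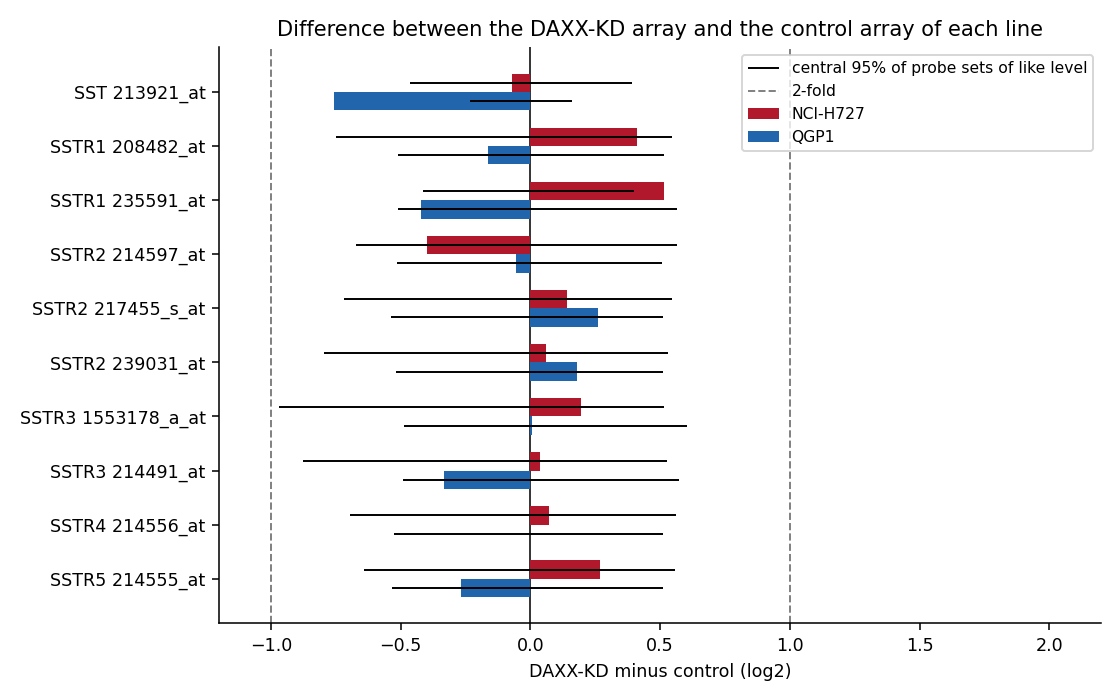
Log2 difference, DAXX-KD minus control, of each member probe set, from 1 array per condition, with NCI-H727 above QGP1. Thin lines give the central 95% of probe sets within 0.5 of the same level in that line and dashed lines mark 2-fold. The SST bar in QGP1, at -0.76, reaches past its thin line, as does the SSTR1 235591_at bar in NCI-H727, at 0.51.

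Over both lines, limma gave SST a DAXX-KD minus control difference of -0.41 (SE 0.20, adjusted p = 0.979). The other member probe sets lay between -0.23 and 0.20. At an adjusted p of 0.05 it called 0 of 10 member probe sets, and 0% of all probe sets. DAXX itself was not called, with -1.59 at 201763_s_at and -1.49 at 216038_x_at (adjusted p = 0.979 in limma at each). The lack of a call therefore says little about a member. At an unadjusted p under 0.05 there were 0 members and 2654 of all probe sets, 4.86%.

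Genes that make the peptide were described next, from lists written with earlier results of these data known. For a gene with several probe sets, the one with the highest mean stood for it. Over 46 measured genes of 53 listed, 8 were higher in NCI-H727 and 10 lower in limma at an adjusted p of 0.05. That is 17.4% and 21.7%, beside 15.5% and 16.7% of all genes, with a median difference of 0.11 in the lists and 0.06 over all genes. The shares were close to the background, so the lists as a whole are no result.

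Of 5 measured genes of precursor processing, 0 rose and 2 fell in NCI-H727. SCG5, the chaperone 7B2 of a prohormone convertase, fell by 6.40 (SE 0.13, adjusted p = 0.000223 in limma): it read 6.13 and 6.55 in NCI-H727 DAXX-KD and control cells, against 12.55 and 12.93 in QGP1. PCSK1N, the inhibitor proSAAS, fell by 1.20. CPE, the carboxypeptidase that trims prohormones, read between 12.37 and 12.97 on all arrays and did not pass (-0.40, adjusted p = 0.144). CORT, the gene of the related peptide cortistatin, read between 4.52 and 5.09.

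Of 7 measured transcription factors listed as islet and D cell regulators of SST, 0 rose and 3 fell in NCI-H727. NKX2-2, an islet factor not on this list, was higher there by 3.85 (SE 0.28, adjusted p = 0.00174 in limma). HHEX, which D cells need in mice, fell by 3.28 (SE 0.13), reading 5.32 and 5.05 in NCI-H727 DAXX-KD and control cells, against 8.59 and 8.34 in QGP1. Its other probe set also fell by 2.93. PAX6 fell by 1.31 and ISL1 fell by 0.65. CREB1 did not pass (-0.14, adjusted p = 0.526). Among the other islet hormones, GHRL, the ghrelin gene, rose by 0.75 near the dim level, and its other probe set did not pass (0.38). INS, GCG and IAPP read between 2.70 and 3.99 on all arrays, under the dim level.

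Genes that act behind the receptors were mixed. Of 5 inhibitory G protein subunits 1 rose and 3 fell: GNAI1 fell by 1.62, with its other probe set lower too, GNAI3 fell by 0.82 and GNAZ rose by 0.61. Of 9 adenylyl cyclases, which these G proteins inhibit, 3 rose and 1 fell. ADCY8 read 7.77 and 7.97 in NCI-H727 DAXX-KD and control cells, against 4.05 and 4.31 in QGP1, a difference of 3.69. ADCY2 fell by 2.61, with its 2 other probe sets, both dim, between -0.02 and 0.21. ADCY7 rose by 0.57.

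Of 7 channels, 1 rose and 1 fell. CACNA1D, an L-type calcium channel, fell by 2.501, with 3 other probe sets between -1.78 and -0.22. KCNJ6, a potassium channel opened by inhibitory G proteins, rose by 1.05, while its other probe set differed by 0.03. The phosphatase gene PTPN11 (SHP2) rose by 0.996, and 2 of its 5 other probe sets rose too. Of 5 receptor kinases and arrestins, 1 rose and 0 fell: GRK5, a kinase of active receptors, rose by 3.92, against 0.49 to 0.70 at its 3 other probe sets.

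**Figure D4:**
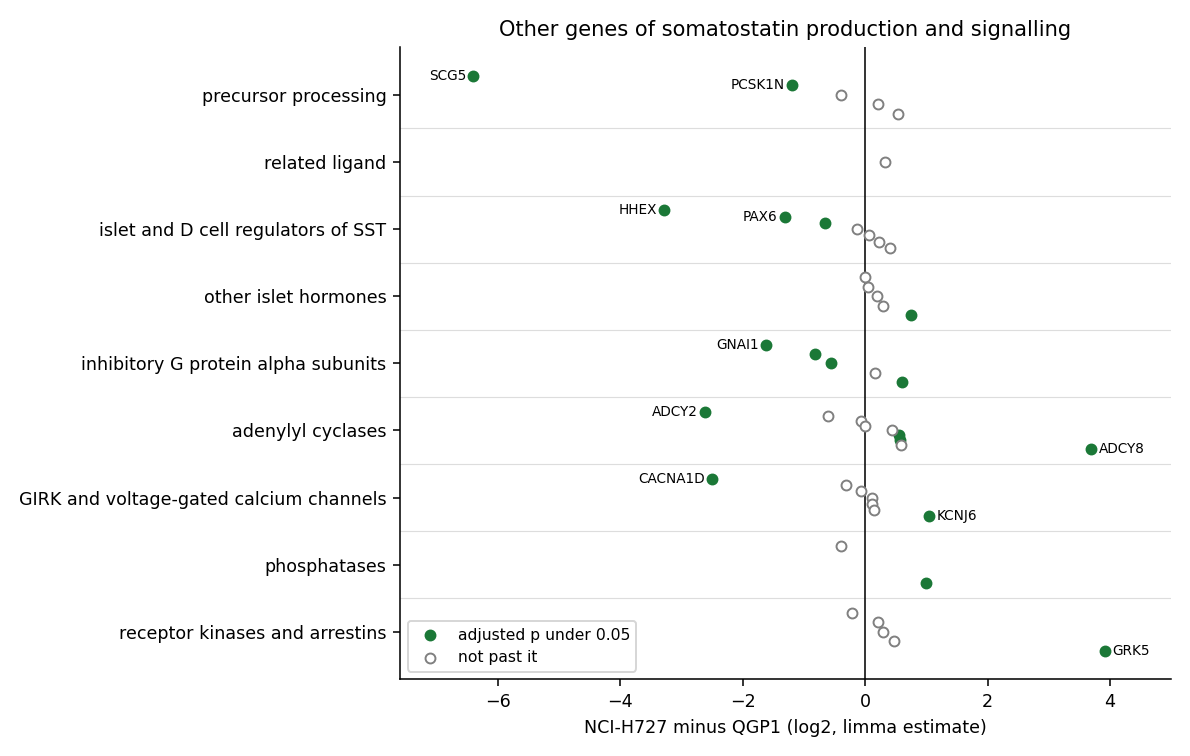
NCI-H727 minus QGP1 (log2, limma estimate) for 46 genes of somatostatin production and signalling, 1 point per gene and 1 row per list. Filled points passed an adjusted p of 0.05, and those past 2-fold are named; SCG5 and HHEX lie far to the left, GRK5 and ADCY8 far to the right.

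After DAXX siRNA, 0 of the 46 genes differed by 2-fold or more in either line, beside 1.19% of all genes in NCI-H727 and 0.445% in QGP1. The largest difference was that of ADCY2 in QGP1, which read 6.63 in DAXX-KD cells and 7.46 in control cells (-0.83). The list medians over the 46 genes were 0.07 in NCI-H727 and 0.01 in QGP1, beside 0.03 and 0.005 over all genes.

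Profiles most like that of SST were found by Euclidean distance over the 4 arrays, after each probe set was centred on its own mean, among 27214 probe sets of other genes past the dim level. The nearest were CFAP276 (distance 0.09), LMO3 (0.10), SFXN3 (0.19), JUN (0.22) and RGS2 (0.24), and 7 probe sets lay within 0.25. JUN, an AP-1 transcription factor, read 9.65 and 9.58 in NCI-H727 DAXX-KD and control cells, against 10.65 and 11.42 in QGP1. RGS2, a regulator of G protein signalling, read 8.79 and 9.14 in NCI-H727, against 10.35 and 10.93 in QGP1. For SSTR1 235591_at, added after its values were seen, they were PTPRG (0.12), PTN (0.13), COTL1 (0.14), RASD1 (0.20) and ENAH (0.22). The receptor probe set with the highest mean, SSTR3 1553178_a_at, was almost flat, and 5221 probe sets lay within 0.25 of it, NISCH, SAG, PRODHLP, MAPKAPK3 and UBE2F first.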

How the data were processed

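Total RNA was measured on 4 one-colour Affymetrix arrays. The deposited table holds log2 expression values that the authors made by RMA. Per the submitters' processing notes, the authors ran affy 1.40.0 in R 3.0.3. RMA quantile-normalizes the arrays, so a shift shared by most genes would be removed, and the number of arrays limits the precision. Gene symbols came from the platform annotation of each probe set: 41091 had 1 symbol, 1801 several and 11721 none. Entrez identifiers of 41037 matched RefSeq genes (GRCh38.p14), and 0 symbols changed.

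The main test was limma 3.58.1 (R 4.3.3), with cell line and treatment, on all probe sets without a filter, two-sided, with Benjamini-Hochberg adjustment at 0.05. It was tested on simulated data. Differences within a line were described by size, at 2-fold. Alternatives were an intensity trend, the 40th percentile filter, a second quantile normalization, 1 probe set per gene, probe sets averaged per gene, no line covariate and 1.5-fold. The text names every member, DAXX, up to 3 called genes per list, and the 5 nearest profiles; any other gene named was chosen after its values were seen. The members and lists were chosen with earlier results of these data known. Some listed genes were not analysed here.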

Additional observations from a re-analysis of the deposited data

Results flagged for a closer look

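DAXX-KD minus control had opposite signs in the lines at 4 of 10 member probe sets, each from 1 array per condition, and these differences were not tested. The share of all probe sets with opposite signs was not counted, so the number is no result about the members. For SSTR1 235591_at the NCI-H727 value exceeded the QGP1 value by 0.93 (0.51 and -0.42), and for SSTR1 208482_at by 0.57 (0.41 and -0.16). For SSTR5 214555_at it did so by 0.54 (0.27 and -0.27) and for SSTR3 214491_at by 0.37 (0.04 and -0.33).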

How the results depend on the processing

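Of 96 recomputed values of single member probe sets, 94 kept their direction and side of the threshold, or for differences within a line moved by less than the spread between probe sets of a gene. Only the second quantile normalization could change the estimate of a single probe set. The other alternatives kept each estimate by construction, so there only its adjusted p could move. After the second quantile normalization SSTR4 differed between lines by -0.0358 and SSTR5 after DAXX siRNA by -0.00945, both changing sign near 0. DAXX-KD minus control of SSTR3 1553178_a_at in QGP1 also changed sign, from 0.00526 to -0.0249. It counts among the 94 because it moved by less than the spread between probe sets of a gene. Between lines, 5 member probe sets passed. The count was 3 with the filter, which leaves out 2 SSTR2 probe sets. SSTR1 235591_at passes that filter only through its QGP1 values, so its place in this count depends on the difference under test. With 1 probe set per gene, which represents SSTR1 by 208482_at, the count was 2. It was 3 genes (SST, SSTR1 and SSTR2) with probe sets averaged per gene. The SSTR1 average (-2.18) joined 235591_at (-4.58) with 208482_at (0.22), which did not pass alone. Adjusted p of SST lay between 0.00158 and 0.00371 under the alternatives. At 1.5-fold, 1 member (SST) passed in QGP1 and 4 between lines in both treatments; at 2-fold with 1 probe set per gene, 1 did. The member counts after DAXX siRNA stayed at 0 under every limma alternative run, with adjusted p from 0.834. This says little about the members, since the main fit called no probe set for DAXX siRNA, those of DAXX included. The number of arrays, dim signal at several receptor probe sets, and line names that rest on titles limit these results.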
